A study of Mus musculus with 12 samples.

Results

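Metabolic nuclear receptors are transcription factors that bind small molecules and switch the genes of drug, bile acid, cholesterol and hormone handling. In this series of mouse liver arrays they were taken as every probe set whose platform gene symbol was Nr1i2, Nr1h3, Nr1h4, Nr0b2, Nr3c1, Thrb, Rxra, Rara or Esr1. These 9 genes had 13 of the 22626 probe sets that were not array controls. A probe set is a group of short probes on the array that together report 1 transcript signal. The livers came from 12 female C57BL/6 mice, an inbred laboratory strain, each on its own array, and fell into 4 groups of 3. The groups were testosterone at the end of treatment, vehicle at the end of treatment, testosterone after withdrawal, and vehicle after withdrawal. Treatment lasted 3 weeks with 2 injections under the skin per week, of 0.9 mg testosterone in the hormone groups and of 100 µl sesame oil in the vehicle groups. The sample labels give 12 weeks of withdrawal and the series' design text gives 3 weeks, so its length is not settled here. No genetic change was given for any group, and the age of the mice is not given in the sources used here.

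The receptors work as ligand sensors. A lipid, bile acid, drug or hormone enters the binding pocket, and the receptor, often as a pair with the retinoid X receptor, then recruits coregulators at its target genes. In liver, the pregnane X receptor (Nr1i2) guards against foreign chemicals, the liver X receptor alpha (Nr1h3) senses oxidised cholesterol, and the farnesoid X receptor (Nr1h4) senses bile acids and acts partly by inducing the repressor Nr0b2. The glucocorticoid receptor (Nr3c1), thyroid hormone receptor beta (Thrb), retinoic acid receptor alpha (Rara) and estrogen receptor alpha (Esr1) carry hormone signals to metabolic genes.

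Values are linear array signals, and a log2 change is testosterone over vehicle with its standard error from limma, unless a comparison between times is named. The 12 arrays had median signals of 20.03 to 22.4, and arrays of a group correlated at r of 0.979 to 0.989. Of 8 hepatocyte markers, 7 were on the array and lay above the array's median on every array, with summed signals of 30795 to 31718 in testosterone mice and 30159 to 31945 in vehicle mice when treatment ended. After withdrawal their sums were 31575 to 37293 in testosterone mice and 29358 to 32739 in vehicle mice. Then 2 of the 7 were called higher, against 2.16% of all tested probe sets. The 6 lymphocyte markers and the 5 cholangiocyte markers on the array were dim. Macrophage markers summed to 2449 to 2985 in testosterone mice and 3375 to 5317 in vehicle mice when treatment ended, and 6 of their 10 genes fell, against 10.1% of all tested probe sets. Endothelial markers summed to 799 to 872 in testosterone mice and 907 to 1051 in vehicle mice at that time, and 1 of 7 fell. Stellate cell markers summed to 1607 to 1649 in withdrawn testosterone mice and 1875 to 2029 in withdrawn vehicle mice. Of the 4 tested, 0 were called, and Col1a1, Lrat and Des were dim. When treatment ended the stellate sums overlapped, at 1370 to 1533 in testosterone mice and 1460 to 1736 in vehicle mice. The part of these cell types in the receptor results was not tested. Exocrine pancreas markers summed to 359, 872 and 46.7 in testosterone mice 1, 2 and 3 after withdrawal and to at most 78.1 in every other mouse. The 3' to 5' signal ratio of beta-actin, which rises with RNA breakdown or incomplete copying, was 2.11 ± 0.077 in testosterone mice against 1.52 ± 0.108 in vehicle mice when treatment ended (SD, n = 3 each). The two-sided exact permutation p was 0.1, the smallest that 3 mice against 3 allow. The same ratio for pyruvate carboxylase was 18.8 ± 2.64 in testosterone mice against 6.06 ± 1.35 in vehicle mice then (exact permutation p = 0.1). For Gapdh, whose ratio was not put in a fit, it was 0.930 ± 0.025 against 0.763 ± 0.032 then (exact permutation p = 0.1). The part of this RNA difference in the changes at the end of treatment was not tested apart from the fits given beside them. After withdrawal the actin ratios were 1.62 ± 0.179 in testosterone mice and 1.77 ± 0.154 in vehicle mice (exact permutation p = 0.2).

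Signals of Nr3c1, Nr1h3 and Rxra differed between testosterone and vehicle mice when treatment ended, and that of Nr1i2 after withdrawal, whereas Nr1h4 did not pass the test at either time. Each of the calls at the end was lost with either RNA ratio in the fit. So were most calls over all tested probe sets, where 2344 became 86 with the actin ratio and 60 with the pyruvate carboxylase ratio. The ratios separated the treatments at the end, so these fits cannot tell treatment from RNA state. Of the 13 probe sets, 10, of 6 genes, exceeded the median of their array in 3 or more mice and were tested. The single probe sets of Thrb, Rara and Esr1 did not. At the end of treatment 1 of the 10 rose and 3 fell at an adjusted p under 0.05, while 19.4% of all 12108 tested probe sets were called (9.31% higher and 10.1% lower, or 1127 and 1217 probe sets, against 1253 and 983 with each array centred on its median). The median log2 change of the 10 was -0.25, against 0.04 over all tested probe sets. No testosterone mouse fell within the range of the vehicle mice for 6 of the 10, against 38.2% of all tested probe sets. After withdrawal 1 of the 10 fell and none rose, with 4.9% of all tested probe sets called (2.16% higher and 2.73% lower, or 262 and 331 probe sets, against 333 and 215 with median centring), and the groups did not overlap for 2 of the 10, against 24% of all. The medians at that time were -0.07 for the 10 and -0.03 over all.

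**Figure D1:**
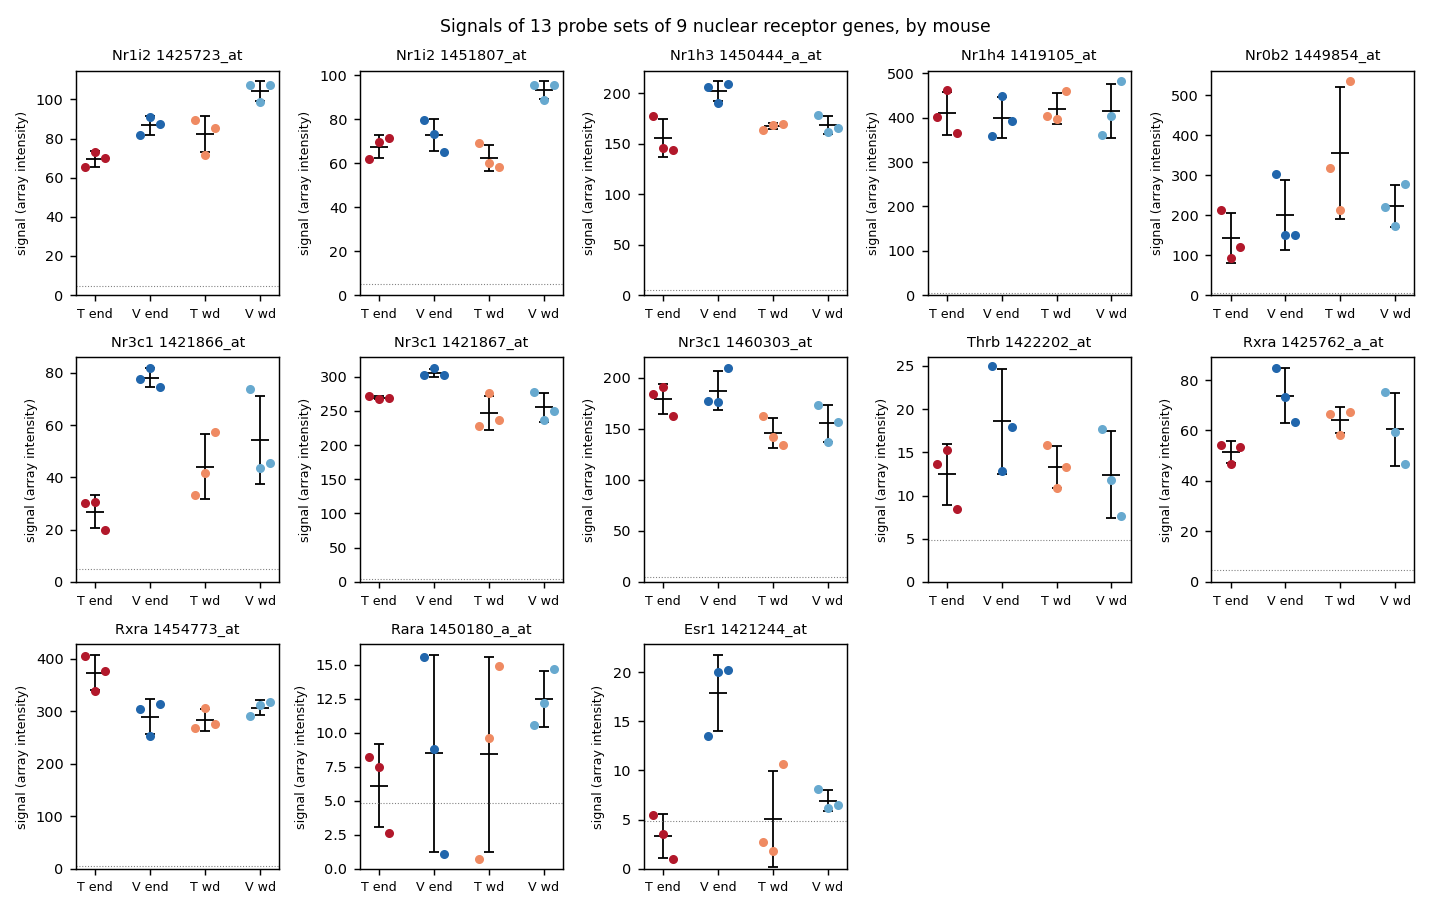
Array signal (y axis, linear intensity) of each of the 13 probe sets in every mouse. Points are mice, wide bars group means and error bars SD (n = 3), T is testosterone, V is vehicle, end is the end of treatment and wd is after withdrawal and the dotted line is the floor of 4.84. The 3 testosterone mice at the end lie at 19.9 to 30.8 for Nr3c1 1421866_at, below the vehicle mice at 74.8 to 82.1.

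Nr1i2, the pregnane X receptor, induces cytochromes and transporters when it binds drugs, steroids or bile acids. Its signal was lower in testosterone livers after withdrawal by 1 of its 2 probe sets. Probe set 1451807_at read 69.0, 59.8 and 58.0 in testosterone mice and 95.6, 88.5 and 95.6 in vehicle mice after withdrawal. The highest testosterone mouse lay below the lowest vehicle mouse. The log2 change was -0.59 ± 0.12, with a limma adjusted p of 0.0128. At the end of treatment the same probe set read 69.6, 61.7 and 71.2 in testosterone mice and 79.5, 73.3 and 65.0 in vehicle mice. These groups overlapped, and the log2 change of -0.10 ± 0.12 did not pass the test (limma adjusted p = 0.598).

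The other Nr1i2 probe set, 1425723_at, read 89.4, 71.8 and 85.2 in testosterone mice and 107.6, 98.6 and 107.1 in vehicle mice after withdrawal. It read 73.0, 65.4 and 70.3 in testosterone mice and 81.7, 91.1 and 87.4 in vehicle mice when treatment ended. Every testosterone mouse lay below every vehicle mouse at both times. The log2 changes of -0.35 ± 0.12 after withdrawal and -0.32 ± 0.12 at the end did not pass the adjusted threshold (limma adjusted p = 0.110 and 0.0718). The call for 1451807_at was lost without vehicle mouse 3, testosterone mouse 2 or testosterone mouse 3 of the withdrawn groups (log2 changes -0.57, -0.56 and -0.54, limma adjusted p up to 0.0613) and when the actin ratio was a covariate (-0.54, adjusted p = 0.0526). It was kept with the pyruvate carboxylase ratio in the fit (-0.58, limma adjusted p = 0.0252).

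Nr1h3, the liver X receptor alpha, turns on cholesterol efflux and fatty acid synthesis in hepatocytes and in macrophages. Its signal fell at the end of treatment. Probe set 1450444_a_at read 146, 177 and 144 in testosterone mice and 206, 191 and 209 in vehicle mice then. The highest testosterone mouse lay below the lowest vehicle mouse. The log2 change was -0.38 ± 0.11, or 1.30-fold lower (limma adjusted p = 0.0234). After withdrawal the signals were 164, 168 and 170 in testosterone mice and 179, 162 and 165 in vehicle mice. These groups overlapped, with a log2 change of -0.01 ± 0.11 (limma adjusted p = 0.969). In whole liver, fewer cells of a type and less RNA per cell cannot be told apart, and macrophage markers were lower in the same testosterone mice (medians of log2 change over the 10 markers of -0.79 at the end and 0.01 after withdrawal); their part in the Nr1h3 result was not tested. The call was lost without vehicle mouse 1 or 3 or testosterone mouse 1 or 3 of the end groups (log2 changes -0.37, -0.35, -0.34 and -0.33, limma adjusted p of 0.0636 to 0.0920), with the 6 arrays of the end groups alone (adjusted p = 0.0536), and with the actin (-0.20) or pyruvate carboxylase ratio (-0.16) in the fit.

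Nr1h4, the farnesoid X receptor, is the nuclear bile acid sensor. Its probe set 1419105_at read 462.0, 401.5 and 365.4 in testosterone mice and 358.5, 449.5 and 392.4 in vehicle mice when treatment ended. After withdrawal it read 403.5, 396.5 and 461.2 in testosterone mice and 361.9, 403.3 and 482.3 in vehicle mice. The groups overlapped at both times, and the means of the 4 groups lay within a log2 range of 0.07. The log2 changes were 0.03 ± 0.13 at the end and 0.02 ± 0.13 after withdrawal (limma adjusted p = 0.881 and 0.942).

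Nr0b2 encodes the small heterodimer partner, a receptor without a DNA-binding domain that represses bile acid synthesis when the farnesoid X receptor induces it. It varied most between mice of a group among the 10 tested probe sets, with a within-group SD of 0.57 on the log2 scale. Probe set 1449854_at read 93.3, 213.4 and 120.0 in testosterone mice and 301.9, 149.3 and 150.1 in vehicle mice when treatment ended. After withdrawal it read 317.5, 212.1 and 534.7 in testosterone mice and 219.9, 171.9 and 276.6 in vehicle mice. The treatments overlapped at both times. The log2 changes of -0.50 ± 0.35 at the end and 0.59 ± 0.35 after withdrawal did not pass the test (limma adjusted p = 0.340 and 0.373), nor did their difference of 1.10 ± 0.50 (adjusted p = 0.192).

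Between the times, Nr0b2 was higher in withdrawn testosterone mice than in testosterone mice when treatment ended. The geometric means were 330 after withdrawal and 134 at the end, a log2 change of 1.30 ± 0.35 or 2.47-fold (limma adjusted p = 0.0299). The ranges overlapped, since withdrawn mouse 2 (212.1) lay just below end mouse 2 (213.4). The call was lost without testosterone mouse 1 or 3 at the end (log2 changes 1.05 and 1.23) or withdrawn testosterone mouse 3 (0.96), and with the actin (0.86) or pyruvate carboxylase ratio (0.89) in the fit. In vehicle mice the same step was 0.21 ± 0.35 (limma adjusted p = 0.722). The stretch of 250 bases before the annotated start of Nr0b2 is printed because this was the most variable of the tested genes. It lies at chr4:133553126-133553375 on the plus strand of GRCm38.p6, from RefSeq, and capitals mark a TTCNNNGAA match 91 bases before the start, where TTCNNNGAA is the core of the DNA element of STAT factors.
Nr0b2: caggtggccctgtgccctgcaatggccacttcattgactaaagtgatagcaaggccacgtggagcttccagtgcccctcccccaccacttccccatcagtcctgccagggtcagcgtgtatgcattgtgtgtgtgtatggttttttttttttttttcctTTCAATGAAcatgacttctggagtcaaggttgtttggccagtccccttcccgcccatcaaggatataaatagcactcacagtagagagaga
TTCNNNGAA was searched on both strands and stood in 7.02% of 32851 windows of this length. AGGTCA, the hexamer on which many nuclear receptors sit, and AGAACA, that of the androgen and glucocorticoid receptors, had no match in this window. These 2 were searched as AGGTCA or TGACCT and as AGAACA or TGTTCT and stood in 14.0% and 16.1% of all windows. Windows were searched for 8 of the 9 genes, 15 in all, and none was searched for Nr3c1. Of these 15, 3 held AGGTCA, 1 held AGAACA and 3 held TTCNNNGAA.

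Rxra encodes the retinoid X receptor alpha, the partner that several of these receptors need to bind DNA. Its 2 probe sets moved in opposite directions at the end of treatment. Probe set 1454773_at read 338, 406 and 376 in testosterone mice and 304, 253 and 314 in vehicle mice, so that every testosterone mouse was higher. The log2 change was 0.37 ± 0.11, or 1.29-fold higher (limma adjusted p = 0.0310). Probe set 1425762_a_at read 46.6, 54.3 and 53.4 in testosterone mice and 84.9, 73.2 and 63.4 in vehicle mice, so that every testosterone mouse was lower. Its log2 change was -0.51 ± 0.17, or 1.43-fold lower (limma adjusted p = 0.0467). The log2 ratio of 1425762_a_at to 1454773_at within a mouse was -2.86 ± 0.04 in testosterone mice against -1.98 ± 0.29 in end-of-treatment vehicle mice (SD, n = 3 each). After withdrawal it was -2.14 ± 0.22 in testosterone mice against -2.37 ± 0.41 in vehicle mice. Which Rxra transcripts each probe set reports was not given, so no direction is stated for the gene.

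After withdrawal, Rxra 1454773_at read 268, 306 and 275 in testosterone mice and 291, 313 and 317 in vehicle mice, and 1425762_a_at read 66.6, 58.2 and 67.5 in testosterone mice and 75.3, 59.5 and 46.6 in vehicle mice. The treatments overlapped for both, with log2 changes of -0.12 ± 0.11 and 0.11 ± 0.17 (limma adjusted p = 0.587 and 0.763). From the end to the withdrawn time, 1454773_at was 1.32-fold lower in withdrawn testosterone mice (log2 change -0.40 ± 0.11, limma adjusted p = 0.0329). The end-of-treatment call of 1454773_at was lost without vehicle mouse 1 or 2 or testosterone mouse 2 or 3 (log2 changes 0.40, 0.27, 0.31 and 0.36, limma adjusted p up to 0.124) and with either RNA ratio in the fit, where the change itself was 0.46 (actin) and 0.50 (pyruvate carboxylase). That of 1425762_a_at was lost without any one of 8 mice (5 of the end groups, all but vehicle mouse 3, and withdrawn vehicle mouse 2 and withdrawn testosterone mice 2 and 3; range -0.62 to -0.41), fell to -0.18 with the actin ratio and turned to 0.12 with the pyruvate carboxylase ratio. The call of 1454773_at between the times was lost without testosterone mouse 2 or 3 at the end (-0.34 and -0.39) or withdrawn testosterone mouse 1 or 3 (-0.36 and -0.38). That call was also lost with either RNA ratio in the fit, with no filter, with the replicate block and without the variance trend.

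RefSeq gives 2 starts for Rxra, and the 250 bases before each are printed because its 2 probe sets moved apart. The upstream window lies at chr2:27676951-27677200 and the downstream window at chr2:27709042-27709291, both on the plus strand of GRCm38.p6. Capitals mark TGACCT and AGGTCA, the same hexamer on opposite strands, 87 and 48 bases before the downstream start.
Rxra upstream start: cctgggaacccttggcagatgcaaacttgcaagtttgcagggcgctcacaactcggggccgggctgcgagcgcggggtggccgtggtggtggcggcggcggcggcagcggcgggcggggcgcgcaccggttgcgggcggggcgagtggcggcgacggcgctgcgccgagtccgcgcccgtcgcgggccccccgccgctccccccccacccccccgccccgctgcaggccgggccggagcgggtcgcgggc
Rxra downstream start: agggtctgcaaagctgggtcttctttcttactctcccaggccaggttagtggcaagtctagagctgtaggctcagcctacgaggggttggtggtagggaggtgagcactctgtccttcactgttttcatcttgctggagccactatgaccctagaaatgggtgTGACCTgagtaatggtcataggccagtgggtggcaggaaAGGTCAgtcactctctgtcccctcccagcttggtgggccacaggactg
The upstream window held 81.2% G or C and none of the 3 motifs, and the downstream window held 55.2% G or C. A match here is a description of the letters and not of bound receptor, and no probe set was assigned to either start.

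Nr3c1, the glucocorticoid receptor, is the receptor for corticosterone and drives gluconeogenic and stress genes. At the end of treatment 1 of its 3 probe sets fell more than any other tested member. Probe set 1421866_at read 30.8, 30.2 and 19.9 in testosterone mice and 77.6, 82.1 and 74.8 in vehicle mice. The groups lay far apart, with a log2 change of -1.56 ± 0.24, or 2.95-fold lower (limma adjusted p = 0.000549). The call was kept without each of the 12 mice in turn (log2 changes of -1.67 to -1.36, limma adjusted p up to 0.00341).

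The other 2 probe sets of Nr3c1 moved far less. Probe set 1421867_at read 267.0, 272.3 and 268.7 in testosterone mice and 303.1, 312.6 and 301.8 in vehicle mice when treatment ended. Every testosterone mouse was lower, yet the log2 change of -0.18 ± 0.10 did not pass the test (limma adjusted p = 0.218). Probe set 1460303_at read 191.3, 184.1 and 162.9 in testosterone mice and 176.6, 175.7 and 209.5 in vehicle mice, overlapping, with a log2 change of -0.06 ± 0.13 (limma adjusted p = 0.774). The log2 ratio of 1421866_at to 1421867_at within a mouse was -3.35 ± 0.36 in testosterone mice against -1.97 ± 0.04 in vehicle mice then (SD, n = 3 each). The probe sets thus disagreed on the size of the change, and where each lies in the transcript was not given.

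After withdrawal Nr3c1 1421866_at read 33.2, 41.8 and 57.6 in testosterone mice and 73.7, 43.5 and 45.6 in vehicle mice. The groups overlapped, and the log2 change of -0.29 ± 0.24 did not pass the test (limma adjusted p = 0.528). Between the times this probe set changed by log2 0.70 in testosterone mice and -0.57 in vehicle mice, neither passing the test. The difference between the testosterone effect after withdrawal and that at the end was 1.27 ± 0.34 on the log2 scale (limma adjusted p = 0.0454). It was the only call of a difference between the times among the 10 tested probe sets, with 4.77% of all tested probe sets called (2.65% higher and 2.12% lower). At an unadjusted p under 0.05, 6 of the 10 had such a difference, against 24.4% of all. Without each mouse in turn the difference ranged from 1.06 to 1.51 and the call was kept in 2 cases, without withdrawn vehicle mouse 1 and without withdrawn testosterone mouse 1. The limma adjusted p in the other 10 ranged up to 0.126.

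The RNA ratios of the same arrays stand beside these Nr3c1 signals. The pyruvate carboxylase ratio was 15.3, 9.86 and 9.33 in withdrawn testosterone mice 1, 2 and 3 and 9.03, 16.3 and 17.0 in withdrawn vehicle mice 1, 2 and 3. The mouse with the highest signal in each withdrawn group had the lowest ratio of its group, whereas withdrawn vehicle mouse 3 had both a higher ratio and a higher signal than mouse 2. The relation within the withdrawn groups was not tested. At the end of treatment the ratios were 21.9, 17.4 and 17.3 in testosterone mice and 4.57, 7.20 and 6.40 in vehicle mice. With the actin ratio in the fit, the change at the end was -0.49 (limma adjusted p = 0.690) and the difference between the times turned to -0.11 (adjusted p = 0.997). With the pyruvate carboxylase ratio these were -0.68 (limma adjusted p = 0.706) and 0.25 (adjusted p = 0.999). Since the ratios separated the treatments at the end, the treatment and the state of the RNA cannot be told apart for this probe set in that comparison.

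**Figure D2:**
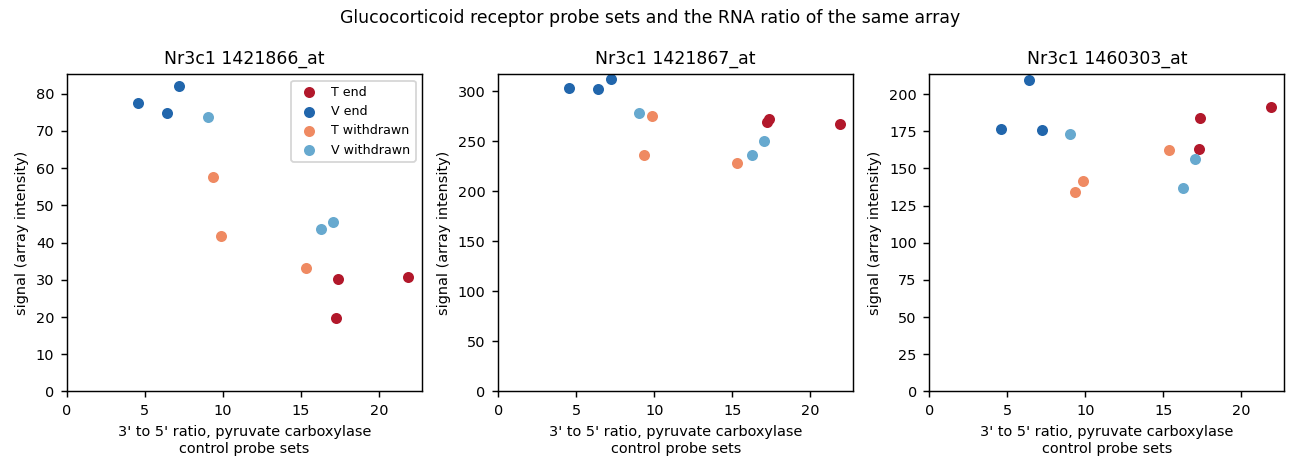
Signal of the 3 Nr3c1 probe sets (y axes, linear intensity) against the 3' to 5' ratio of the pyruvate carboxylase control probe sets on the same array (x axes), 1 point per mouse, T for testosterone and V for vehicle. For 1421866_at the testosterone mice at the end lie at ratios of 17.3 to 21.9 with signals of 19.9 to 30.8 and the vehicle mice at the end at 4.57 to 7.20 with 74.8 to 82.1.

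Thrb, Rara and Esr1 were dim: Thrb and Esr1 lay above the array's median on 1 array each and Rara on 0. Their tests come from a fit of all 22626 probe sets without the filter, which called 6.67% of them at the end of treatment (3.52% lower) and 1.51% after withdrawal. Esr1 1421244_at, the estrogen receptor alpha of hepatocytes, read 3.59, 5.45 and 1.03 in testosterone mice and 13.5, 20.1 and 20.2 in vehicle mice when treatment ended. Every testosterone mouse lay below every vehicle mouse, and 2 of the 3 testosterone mice were under the floor of 4.84. With the floor in place of these 2 signals, Esr1 was called lower (limma adjusted p = 0.0124 without the filter). Only 1 of the end-of-treatment signals lay above the median of its array, so no size is given for this call. Esr1 was not in the fits with an RNA ratio, and the part of the ratio in this call was not tested. After withdrawal Esr1 read 2.69, 1.80 and 10.7 in testosterone mice and 8.11, 6.18 and 6.52 in vehicle mice. These groups overlapped (limma adjusted p = 0.978), and the difference between the times did not pass the test (adjusted p = 0.125, with 0.278% of all probe sets called). Withdrawn vehicle mice were lower in Esr1 than vehicle mice at the end, with means of 6.94 ± 1.03 and 17.9 ± 3.84 (SD, n = 3 each; limma adjusted p = 0.0432 without the filter, with 4.6% of all probe sets called and 1.78% lower). The withdrawn signals stood just above the floor and all under the medians of their arrays, so no size is given for this Esr1 difference. The pyruvate carboxylase ratio was 14.1 ± 4.42 in withdrawn vehicle mice and 6.06 ± 1.35 in end-of-treatment vehicle mice (SD, n = 3 each), and its part in the Esr1 difference was not tested.

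Thrb 1422202_at, the main thyroid hormone receptor of liver, averaged 12.4 ± 3.55 in testosterone mice and 18.6 ± 6.07 in vehicle mice when treatment ended, and 13.3 ± 2.45 and 12.4 ± 5.03 in testosterone and vehicle mice after withdrawal (SD, n = 3 each). The treatments overlapped at both times, and neither log2 change passed the test (-0.57 and 0.17, limma adjusted p = 0.453 and 0.962). Rara 1450180_a_at, a receptor for all-trans retinoic acid, ranged over 2.63 to 8.20 in testosterone mice and 1.08 to 15.6 in end-of-treatment vehicle mice. After withdrawal it ranged over 0.74 to 14.9 in testosterone mice and 10.6 to 14.7 in vehicle mice. It was under the floor in 3 of the 12 mice and overlapped between the treatments at both times. Signals this near the floor do not order the groups for Rara.

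**Figure D3:**
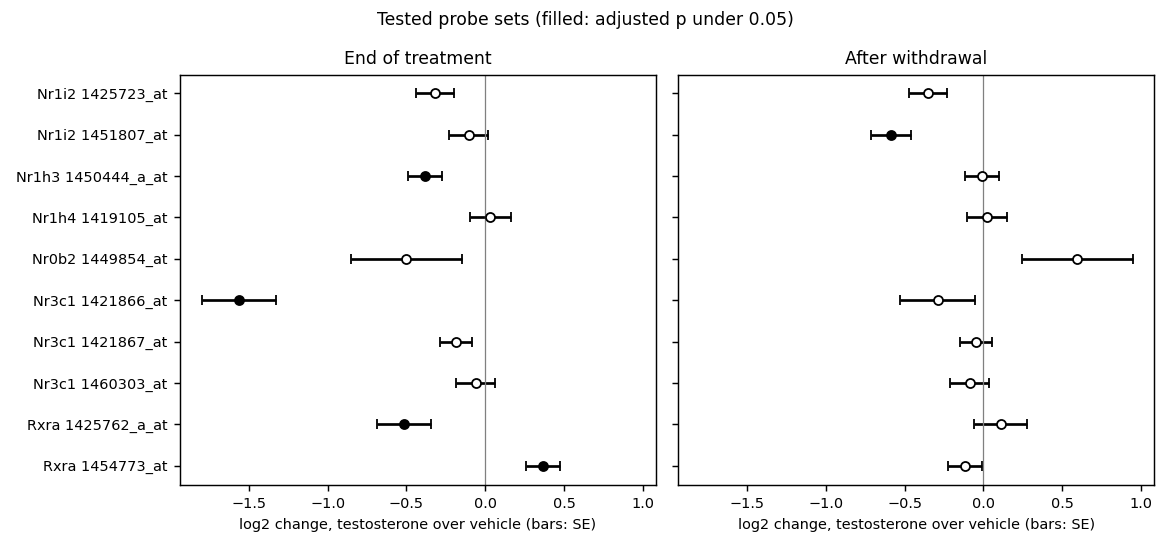
Log2 change of testosterone over vehicle (x axes, bars are the standard error of the limma fit) for the 10 tested probe sets at the end of treatment and after withdrawal; filled points have a limma adjusted p under 0.05. At the end Nr3c1 1421866_at lies at -1.56 and the 2 Rxra probe sets lie on opposite sides of 0, and after withdrawal only Nr1i2 1451807_at is filled.

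Between the times, 2 receptor probe sets were called in testosterone mice. Of the 10 tested, that of Nr0b2 was higher after withdrawal and Rxra 1454773_at was lower, with 10.2% of all tested probe sets called (5.58% higher and 4.58% lower, or 676 and 554 probe sets, against 504 and 690 with median centring). In vehicle mice limma called 0 of the 10, with 16.4% of all tested probe sets called, though 6 of the 10 had an unadjusted p under 0.05 against 31.6% of all. The vehicle groups did not overlap between the times for 6 of the 10, against 34.8% of all. Macrophage markers summed to 1684 to 3015 in withdrawn vehicle mice and 3375 to 5317 in end-of-treatment vehicle mice, and 8 of the 10 fell (median log2 change -1.06), against 6.95% of all tested probe sets. Their part in the vehicle comparison, and that of the pyruvate carboxylase ratio given above, was not tested. Nr3c1 1421866_at was 1.63-fold higher in withdrawn testosterone mice than in those at the end, without overlap, but did not pass the test (log2 change 0.70 ± 0.24, limma adjusted p = 0.0739). In vehicle mice all 3 Nr3c1 probe sets were lower after withdrawal, without overlap, and none passed the test. Their log2 changes were -0.57 ± 0.24 for 1421866_at, -0.27 ± 0.10 for 1421867_at and -0.27 ± 0.13 for 1460303_at (limma adjusted p = 0.116, 0.0844 and 0.153). Among the probe sets that did not overlap in vehicle mice, Nr1i2 1451807_at averaged 93.3 ± 4.10 in withdrawn vehicle mice and 72.6 ± 7.25 in end-of-treatment vehicle mice (SD, n = 3 each; log2 change 0.36 ± 0.12, limma adjusted p = 0.0587). Nr1i2 1451807_at averaged 62.3 ± 5.88 in withdrawn testosterone mice and 67.5 ± 5.10 in testosterone mice at the end (SD, n = 3 each; limma adjusted p = 0.592). The difference of the testosterone effect between the times for this probe set, -0.48 ± 0.18, did not pass the test (adjusted p = 0.112).

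Among 10 lists of receptor targets, partners and ligand enzymes, the targets of Nr1i2 had the highest share of called genes at both times. The lists were chosen with earlier results of these data known, so this order is a description and not independent support. Of the 25 genes outside the 9 receptors that the naming rule takes and that were called at the end, 4 kept the call with the actin ratio in the fit (Akr1d1, Mt2, Mt1 and Slco1a4) and 1 with the pyruvate carboxylase ratio (Mt1). After withdrawal 9 and 11 of 13 such genes kept it. Of 9 tested Nr1i2 targets, 2 rose and 4 fell at the end of treatment, where 19.4% of all tested probe sets were called, and 2 rose and 3 fell after withdrawal, where 4.9% were. The median log2 change of the 9 was 0.03 at the end and -0.18 after withdrawal, against 0.04 and -0.04 over all tested genes. Cyp2b10, a drug-metabolising cytochrome, averaged 44.8 ± 15.4 in testosterone mice and 114 ± 6.01 in end-of-treatment vehicle mice, and 68.2 ± 28.8 and 325 ± 67.9 in testosterone and vehicle mice after withdrawal (SD, n = 3 each). Its log2 changes were -1.40 ± 0.30 and -2.34 ± 0.30 (limma adjusted p = 0.00545 and 0.000222). The drug efflux pump Abcb1a fell at the end (-1.54 ± 0.37). After withdrawal it ranged over 2.46 to 16.5 in testosterone mice and 39.5 to 57.8 in vehicle mice. These testosterone signals all lay under the medians of their arrays and 1 lay under the floor, so no size is given. With the floor in place of that signal, Abcb1a was called lower after withdrawal (limma adjusted p = 0.00311). The transporter Slco1a4 fell too, with log2 changes of -1.10 ± 0.17 and -0.70 ± 0.17, the second of them lost without withdrawn vehicle mouse 2 or 3 or withdrawn testosterone mouse 2 or 3 (limma adjusted p up to 0.128). Cyp3a11, the cytochrome most often used to read out pregnane X receptor activity in mouse liver, rose 1.18-fold at the end and 1.19-fold after withdrawal (limma adjusted p = 0.0274 and 0.0474), and its call was lost at the end without vehicle mouse 1 or any testosterone mouse (log2 changes 0.21 to 0.26) and after withdrawal without each mouse in turn except vehicle mouse 2 of the end group and withdrawn testosterone mice 1 and 2 (0.17 to 0.27).

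Nr1i3, the constitutive androstane receptor, which shares many of these targets, was among the other nuclear receptors. It averaged 192 ± 48.4 in testosterone mice and 419 ± 36.0 in vehicle mice when treatment ended, and 290 ± 62.3 and 413 ± 30.8 in testosterone and vehicle mice after withdrawal (SD, n = 3 each). Its log2 change was -1.16 ± 0.17 at the end (limma adjusted p = 0.000535), kept without each mouse in turn but lost with the actin (-0.85, limma adjusted p = 0.399) or pyruvate carboxylase ratio (-1.32, adjusted p = 0.221) in the fit. It was -0.53 ± 0.17 after withdrawal (adjusted p = 0.103). Of the 19 other nuclear receptors tested, 1 rose (Hnf4a, 0.31 ± 0.09) and 3 fell (Nr1i3, Rarb and Nr2c1) at the end. After withdrawal 1 was higher than in vehicle mice (Nr1d1). These counts lie near the 19.4% called over all tested probe sets at the end and 4.9% after withdrawal. Nr1d1 ranged over 27.5 to 61.0 in withdrawn testosterone mice and 5.26 to 13.9 in withdrawn vehicle mice, the second group all under the medians of their arrays, so no size is given for this difference (limma adjusted p = 0.0128). When treatment ended Nr1d1 ranged over 20.1 to 40.2 in testosterone mice and 14.7 to 42.9 in vehicle mice. Between the times it was called lower in vehicle mice (limma adjusted p = 0.0325) and was not called in testosterone mice (adjusted p = 0.611). Hnf4a, a master regulator of hepatocyte genes, lost its call without vehicle mouse 1 or testosterone mouse 1 or 2 of the end groups (log2 changes 0.28, 0.27 and 0.26). Rarb lost its call without vehicle mouse 1 or testosterone mouse 2 (-0.69 and -0.79), and Nr2c1 without any mouse of the end groups, withdrawn vehicle mouse 2 or withdrawn testosterone mouse 3 (-0.65 to -0.41). Nr1d1 lost its call without withdrawn vehicle mouse 3 or withdrawn testosterone mouse 3 (limma adjusted p up to 0.0738). Ppara, the fatty acid sensor, did not pass the test at either time (-0.13 ± 0.15 and -0.08 ± 0.15).

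Targets of the sterol and bile acid receptors were counted in lists that both hold Cyp7a1. Of 12 tested liver X receptor targets, 0 rose and 5 fell at the end (limma), with 9.31% and 10.1% of all tested probe sets called in those directions, and 0 were called after withdrawal. Their median log2 change was -0.23 at the end and -0.25 after withdrawal. Cyp7a1, which starts the main route of bile acid synthesis and is a target that liver X receptor raises in mice and Nr0b2 lowers, averaged 749 ± 275 in testosterone mice and 2074 ± 155 in end-of-treatment vehicle mice (SD, n = 3 each). Its log2 change was -1.53 ± 0.20 (limma adjusted p = 0.000187), and the call was lost with the actin (-1.12, adjusted p = 0.315) or pyruvate carboxylase ratio (-1.63, adjusted p = 0.178) in the fit. After withdrawal it averaged 1351 ± 260 in testosterone mice and 1620 ± 225 in vehicle mice (SD, n = 3 each; adjusted p = 0.484). The lipid transfer protein Pltp (-0.67 ± 0.21) and the sterol pumps Abcg1 (-0.48 ± 0.14) and Abcg5 (-0.39 ± 0.13) also fell at the end, close to the threshold (limma adjusted p = 0.0361, 0.0303 and 0.0446). Pltp lost its call without any mouse of the end groups (-0.76 to -0.51), Abcg1 without any of them except testosterone mouse 2 (-0.50 to -0.44), and Abcg5 without vehicle mouse 1 or 3 or testosterone mouse 1 or 2 of the end groups, any withdrawn vehicle mouse or withdrawn testosterone mouse 2 (-0.39 to -0.29).

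Of 8 tested farnesoid X receptor targets, 1 rose and 3 fell at the end, against 9.31% and 10.1% of all tested probe sets, and 1 rose and 1 fell after withdrawal, against 2.16% and 2.73%. The list holds genes that the receptor raises and genes, such as Cyp7a1, that are lowered through Nr0b2, so these counts give no direction for the receptor. Cyp8b1, the enzyme that makes cholic acid, averaged 641 ± 38.1 in testosterone mice and 427 ± 118 in end-of-treatment vehicle mice, and 1487 ± 327 and 780 ± 142 in testosterone and vehicle mice after withdrawal (SD, n = 3 each). It was higher at both times (log2 changes 0.62 ± 0.18 and 0.92 ± 0.18, limma adjusted p = 0.0302 and 0.00878). The call at the end was lost without any mouse of the end groups except vehicle mouse 1 (0.51 to 0.67), and that after withdrawal without withdrawn testosterone mouse 3 (0.77). Slc10a1, the bile acid uptake transporter, fell at the end (-0.38 ± 0.08, limma adjusted p = 0.00524). Abcb11, the bile salt export pump and a direct target of Nr1h4, averaged 1055 ± 161 in testosterone mice and 1107 ± 170 in end-of-treatment vehicle mice (SD, n = 3 each; log2 change -0.07 ± 0.12, limma adjusted p = 0.733).

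Of 15 tested glucocorticoid receptor targets, 1 rose (Klf9) and 2 fell at the end of treatment, near the 19.4% called over all tested probe sets. After withdrawal 2 rose and 2 fell, against 4.9% called over all. The median log2 changes were -0.16 and 0.00. The 2 that fell at both times were the metallothioneins Mt1 and Mt2, metal-binding proteins that respond to glucocorticoids and to zinc. Mt1 averaged 56.6 ± 18.1 in testosterone mice and 1810 ± 1191 in end-of-treatment vehicle mice, and 165 ± 51.5 and 2229 ± 480 in testosterone and vehicle mice after withdrawal (SD, n = 3 each). Its log2 changes were -4.83 ± 0.38 and -3.78 ± 0.38 (limma adjusted p = 1.47e-06 and 2.12e-05). Igfbp1, an insulin-like growth factor binding protein, ranged over 186 to 1915 in testosterone mice and 39.0 to 68.2 in vehicle mice after withdrawal (log2 change 3.46 ± 0.59, limma adjusted p = 0.00298). When treatment ended it ranged over 85.5 to 224 in testosterone mice and 211 to 393 in vehicle mice. Fkbp5 and Tsc22d3, textbook glucocorticoid-induced genes, did not pass the test at the end (-0.14 ± 0.28 and -0.11 ± 0.18) or after withdrawal (-0.42 ± 0.28 and -0.17 ± 0.18).

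Of 8 tested thyroid hormone receptor targets, 2 rose at the end (Gpd2, 0.83 ± 0.23, and Klf9, 0.71 ± 0.14, which is also in the glucocorticoid list) and none was called after withdrawal. That is near the 19.4% called over all tested probe sets at the end. Thrsp, a lipogenic protein, and Dio1, the deiodinase that activates thyroid hormone, did not pass the test for testosterone at either time, but both were lower after withdrawal in each treatment. Of the 8 targets, 4 were called lower between the times in testosterone mice and 3 in vehicle mice. Over all tested probe sets 4.58% and 6.95% were. For Dio1 the call in testosterone mice was lost without testosterone mouse 1 of the end group or withdrawn testosterone mouse 2 (range over all mice left out -0.49 to -0.40). Thrsp changed by -1.98 ± 0.20 in testosterone mice and -1.52 ± 0.20 in vehicle mice between the times (limma adjusted p = 2.90e-05 and 0.000322). Of 4 tested retinoic acid receptor targets, Tgm2 rose (0.56 ± 0.14) and Rarb fell (-0.83 ± 0.21) at the end, and Cyp26a1, which breaks down retinoic acid, did not pass (-0.79 ± 0.49, limma adjusted p = 0.281). Rarb is also counted among the other nuclear receptors. Of 4 tested estrogen receptor targets, Agt (-0.65 ± 0.09) and Ctsd (-0.38 ± 0.10) fell at the end, and none was called after withdrawal. These last 2 lists thus had 2 of 4 called at the end, against 19.4% over all tested probe sets. Gpd2 lost its call without vehicle mouse 2 or testosterone mouse 1 or 2 of the end groups (0.59, 0.76 and 0.82), and Ctsd without vehicle mouse 1 or 2 or testosterone mouse 1 or 2 (-0.33, -0.32, -0.34 and -0.39).

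Among 13 tested genes of ligand supply and breakdown, 3 rose and 3 fell at the end, against 9.31% and 10.1% of all tested probe sets, and 3 rose and 1 fell after withdrawal, against 2.16% and 2.73%. Cyp7a1 and Cyp8b1 are also in the farnesoid X receptor list, so these lists are not separate counts. Cyp7b1, the oxysterol and steroid hydroxylase, averaged 1787 ± 291 in testosterone mice and 605 ± 126 in end-of-treatment vehicle mice, and 1531 ± 174 and 341 ± 98.5 in testosterone and vehicle mice after withdrawal (SD, n = 3 each). It rose by 1.57 ± 0.19 and 2.20 ± 0.19 on the log2 scale (limma adjusted p = 0.00012 and 5.23e-06). Akr1d1, the steroid 5-beta reductase of bile acid synthesis, fell at the end (-1.13 ± 0.11, limma adjusted p = 8.61e-06). Serpina6, the blood carrier of corticosteroids, fell at both times (-0.80 ± 0.10 and -0.73 ± 0.10). Of 13 tested coregulators and chaperones, 1 rose at the end, the receptor chaperone Hsp90aa1 (0.64 ± 0.15, limma adjusted p = 0.0085), against 9.31% higher over all tested probe sets, and none was called after withdrawal. All of these lists were compared with the medians over all tested genes of 0.04 at the end and -0.04 after withdrawal, and no list was tested as a whole.

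**Figure D4:**
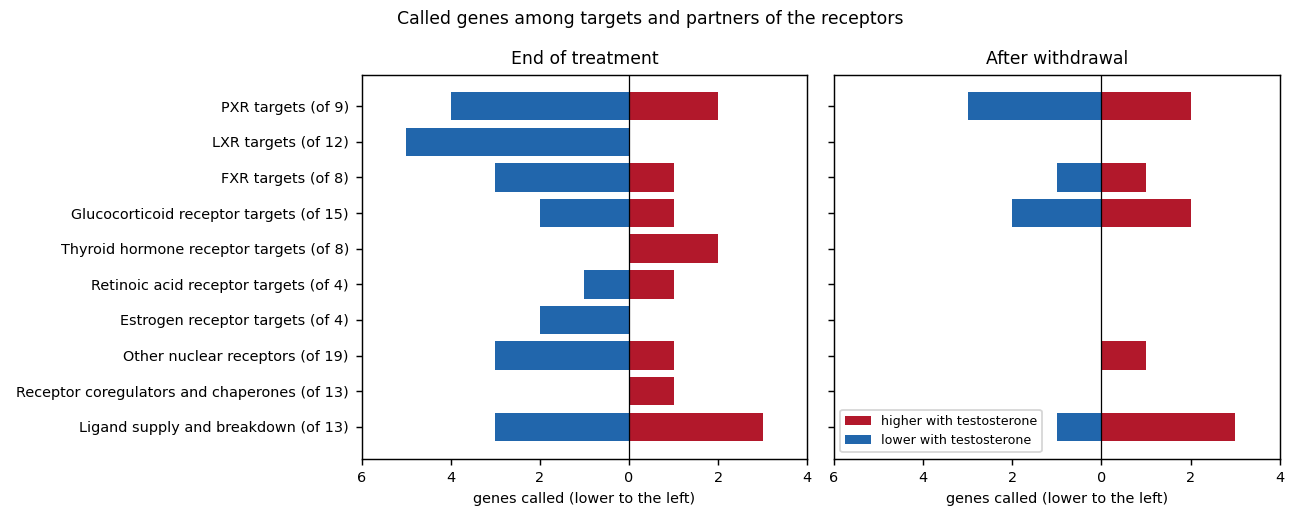
Number of genes called by limma (x axes, to the right higher and to the left lower with testosterone) in each list of receptor targets, partner receptors, coregulators and ligand enzymes, at the end of treatment and after withdrawal; the number tested stands beside each list. The liver X receptor targets have 0 higher and 5 lower at the end and 0 called after withdrawal.

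The genes whose signals ran most like the called receptors over the 12 mice were found by the root mean square difference of log2 signals, each centred on its own mean, among 7218 other genes. Each receptor stood for this by its brightest tested probe set. For Nr1h3 the nearest were Abhd14b (0.0880) and Rnase4 (0.0920), where Nr1h3 itself varied by 0.162 about its mean. For Rxra 1454773_at they were Klc4 (0.0834) and Lrba (0.0872), with 0.187 for Rxra itself. For Nr1i2 1425723_at, which was not the called probe set of that gene, they were Enpep (0.0753) and Pitrm1 (0.0853), with 0.227 for Nr1i2. For Nr3c1 1421867_at, likewise not the called one, they were Grpel1 (0.0754) and Cndp2 (0.0786), with 0.142 for Nr3c1.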

How the data were processed

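Liver RNA (5 µg) was biotin-labelled, per the labels' protocols, and the deposited values are linear intensity signals, 1 per probe set. GCOS and MAS5 were used, per the submitters' processing notes, with no version given. The 2% trimmed mean of every array lay between 100.05 and 100.06, so the values had been scaled before deposit and were not scaled again. Precision is limited by having 3 arrays in a group. Probe sets took their gene from the platform annotation (20380 with 1 symbol, 691 with several, 1555 with none). Signals under 4.84, the 25th percentile of non-control signals, were set to it before log2. The 12108 of 22626 non-control probe sets that exceeded their array's median in 3 or more mice were tested with limma 3.58.1 in R 4.3.3 (lmFit, eBayes with trend, 12 arrays, 4 group means), two-sided, with Benjamini-Hochberg adjustment over all tested and a call at an adjusted p under 0.05. Folds are ratios of geometric means. A gene of a list was read by its brightest tested probe set. RNA ratios were compared by exact permutation. The fit was checked on simulated data with independent noise for each probe set. These held no RNA difference between groups, so the check does not bear on the RNA ratios. Sequences came from RefSeq GRCm38.p6.

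Members and lists were chosen with earlier results of these data known. Named were all member probe sets, up to 3 called genes per list and testosterone comparison by size of change, a set of 12 genes whatever their result (Nr1i3, Ppara, Hnf4a, Cyp3a11, Cyp7a1, Abcb11, Abcg5, Fkbp5, Tsc22d3, Thrsp, Dio1 and Cyp26a1), and the 2 genes most like each called receptor. Alternatives changed scaling, filter, floor, probe sets, arrays, variance trend, replicate block and the actin ratio and left out each mouse. The design text calls the mice individual animals. The pyruvate carboxylase ratio was added after seeing the data.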

Additional observations from a re-analysis of the deposited data

Results flagged for a closer look

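The testosterone effect differed between the times, by limma's test of the difference itself, for 1 receptor probe set and 6 genes of the lists. Each value is the log2 effect after withdrawal minus that at the end of treatment. It joins the step between the times in testosterone mice with that in vehicle mice. In vehicle mice limma called the step of Slc10a1 (-0.30), Cyp27a1 (-0.47), Tgm2 (0.54) and Igfbp1 (-2.59). Their steps in testosterone mice were 0.14, 0.06, -0.38 and 2.21, of which only that of Igfbp1 was called. The steps of Cyp7a1 (0.89) and Akr1d1 (0.65) were called in testosterone mice alone. That of Nr3c1 1421866_at was called in neither. Nr3c1 1421866_at differed by 1.27 (-0.29 after withdrawal, -1.56 at the end, limma adjusted p = 0.0454). Cyp7a1, of bile acid synthesis, differed by 1.26 (-0.27 and -1.53, adjusted p = 0.0271). Slc10a1, the bile acid uptake transporter, differed by 0.44 (0.07 and -0.38, adjusted p = 0.0396). Akr1d1, the steroid reductase, differed by 0.86 (-0.27 and -1.13, limma adjusted p = 0.01). Cyp27a1, the sterol 27-hydroxylase, differed by 0.53 (0.35 and -0.18, adjusted p = 0.0396). Igfbp1 differed by 4.80 (3.46 and -1.34, limma adjusted p = 0.01). Tgm2, a retinoid-induced transglutaminase, differed by -0.92 (-0.35 and 0.56, adjusted p = 0.0216). With the actin or the pyruvate carboxylase ratio in the fit, none of these 7 differences passed the adjusted threshold in limma. The same held with no filter, where the limma adjusted p lay between 0.0535 and 0.163. The calls of Igfbp1 and Akr1d1 were kept without each mouse in turn. That of Tgm2 was lost without withdrawn vehicle mouse 2 or 3 or withdrawn testosterone mouse 3 (range over all mice left out -1.02 to -0.75). That of Cyp7a1 was lost without vehicle mouse 1 or 2 or testosterone mouse 2 or 3 of the end groups, withdrawn vehicle mouse 3 or withdrawn testosterone mouse 2 or 3 (range 1.02 to 1.53). That of Slc10a1 was kept without withdrawn vehicle mouse 1 and testosterone mouse 1 of either time and lost without each other mouse (0.37 to 0.51). That of Cyp27a1 was kept without vehicle mice 2 and 3 of the end group, withdrawn vehicle mouse 1 and withdrawn testosterone mouse 1 and lost without each other mouse (0.47 to 0.63). That of Nr3c1 1421866_at was kept without withdrawn vehicle mouse 1 or withdrawn testosterone mouse 1 and lost without each other mouse (1.06 to 1.51).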

How the results depend on the processing

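The number of called receptor probe sets was small and moved with the processing, and the cause was not tested. At the end of treatment it was 4, and became 2 with 1 probe set per gene, without probe sets shared between transcripts, with the replicate block, without the variance trend and with the 6 arrays compared, and 0 with either RNA ratio. After withdrawal it was 1, and became 0 with 1 probe set per gene and with the actin ratio. For the difference between the times it was 1, and became 0 with no filter, 1 probe set per gene, either RNA ratio, the replicate block or no variance trend. In testosterone mice between the times it was 2, and became 0 with no filter, either RNA ratio or no variance trend and 1 with the replicate block. In vehicle mice it was 0, and became 1 with median centring (Nr1h3) and with no filter (Esr1). Without each mouse in turn these 5 counts ranged over 1 to 4, 0 to 1, 0 to 2, 0 to 3 and 0 to 1. Quantile normalization and log2(signal + 16) left the 5 counts within 1.5 times.

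Called values that turned sign were those with an RNA ratio in the fit. With the pyruvate carboxylase ratio, the change at the end was 0.12 for Rxra 1425762_a_at, 0.0028 for Nr2c1 and -0.17 for Hsp90aa1, and the difference between the times was -0.0586 for Cyp27a1. With the actin ratio, the difference between the times was -0.11 for Nr3c1 1421866_at and -0.0572 for Cyp27a1. Over all probe sets, 2344, 593, 578, 1230 and 1991 were called in the 5 comparisons (end, withdrawal, difference, testosterone between times, vehicle between times). With no filter these were 1509, 341, 63, 712 and 1041, with 1 probe set per gene 1259, 433, 158, 785 and 1289, with the actin ratio 86, 360, 1, 159 and 277, and with the pyruvate carboxylase ratio 60, 470, 1, 425 and 31. The replicate block gave 253 and no variance trend 334 for the difference. Without probe sets shared between transcripts, the counts for the end, the difference and testosterone between times were 1452, 355 and 794. Without each mouse in turn the 5 counts ranged over 1402 to 2585, 302 to 1012, 108 to 1497, 667 to 1664 and 712 to 2197. Median centring turned the split to 1253 higher and 983 lower at the end (1127 and 1217 with the deposited scaling), 333 and 215 after withdrawal (262 and 331), 504 and 690 in testosterone mice between times (676 and 554) and 714 and 1203 in vehicle mice (1149 and 842). Quantile normalization gave 1013 and 1007 in vehicle mice.

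With the group mean of each probe set taken off, same-numbered mice of compared groups correlated at -0.159 to 0.0512 and none matched its own number best. The replicate numbers of the titles thus gave no sign of paired mice, though 3 mice per group cannot exclude a pairing. Precision is limited by 3 arrays per group, by signals near the floor for Rara and Esr1, by an RNA ratio that separated the treatments at the end, and by probe sets of Rxra and Nr3c1 that disagreed.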
